A study of Homo sapiens with 6 samples.

Results

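The 10 genes described here encode a set of chromatin silencers that act on transposable elements. They are the 3 subunits of the HUSH complex (MPHOSPH8, TASOR and PPHLN1), the ATPases MORC2, MORC3 and MORC4, and the silencers ATF7IP, RESF1, SMCHD1 and HELLS. Members were chosen by their gene symbols, each matched to 1 Ensembl identifier, and make up 10 of the 63186 genes in the count table. All 10 passed the filter on low counts that left 15911 genes for testing.

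RNA came from RBE, an established line of human intrahepatic cholangiocarcinoma, which is a cancer of the bile ducts inside the liver. One group of 3 libraries received siRNA against CHAF1A, the large subunit of the histone chaperone CAF-1 (si-CHAF1A), and the other 3 received a control siRNA (si-Ctrl). Both groups were transfected with Lipofectamine at about 60% confluency, changed to fresh medium after 24 h and collected at 48 h. The labels give neither the siRNA sequences nor their number.

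HUSH binds chromatin over young retrotransposons and over inserted, intron-poor DNA, where it helps keep histone H3 methylated at lysine 9. Its chromodomain subunit MPHOSPH8 reads that mark, TASOR is the scaffold of the complex, and PPHLN1 (periphilin) is its RNA-binding subunit. HUSH brings in the methyltransferase SETDB1, which ATF7IP stabilises in the nucleus, and the chromatin-compacting ATPase MORC2. SMCHD1 is a structural-maintenance-like protein of the inactive X chromosome and of repeat arrays, and HELLS is a remodeller that helps maintain DNA methylation.

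Each library held 15643381 to 20918997 counts, of which 11292 to 13641 fell on the 10 members. CHAF1A was at 11.1, 12.9 and 11.2 CPM in si-CHAF1A 1, 2 and 3, and at 51.5, 59.8 and 51.0 CPM in si-Ctrl 1, 2 and 3, where CPM is the count scaled to library size with TMM factors. The fitted log2 fold change was -2.21 ± 0.10 (SE; edgeR adjusted p = 2.57e-10). The library si-Ctrl 2 stood apart from the other controls: it scored -29.6 on the second principal component against 14.9 and 13.9, and 8 of the 10 members had their lowest control value in it. Fold changes of the members are therefore also given without it, where 3519 genes were higher and 3709 lower of 16503 tested. This library was singled out after the data were seen. The epithelial keratins KRT7, KRT19, KRT8 and KRT18 and the other biliary markers EPCAM and SOX9 were all detected (4 higher, 1 lower), with summed levels of 5319 to 5839 CPM in si-CHAF1A and 4111 to 4779 CPM in si-Ctrl. Hepatocyte markers (5 genes) summed to 0.517 to 0.773 CPM in si-CHAF1A and 0.202 to 0.688 CPM in si-Ctrl, and blood markers (3 genes) to at most 0.594 and 0.832 CPM. Fibroblast markers (3 genes, almost all of it COL1A1) summed to 11.5 to 23.8 CPM in si-CHAF1A and 7.34 to 10.1 CPM in si-Ctrl, where DCN and LUM were at 0. Endothelial markers (3 genes) summed to 6.32 to 8.86 CPM in si-CHAF1A and 2.41 to 3.71 CPM in si-Ctrl, with VWF higher. The part of these in the members' results was not tested.

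Of the 10 members, 5 were lower and 1 was higher in si-CHAF1A than in si-Ctrl by edgeR's quasi-likelihood test at an adjusted p under 0.05. The background was broad: the same test called 37.8% of all tested genes, 19.3% lower and 18.5% higher. With library totals in place of TMM that balance turned, to 2455 genes lower and 3447 higher, against 3064 lower and 2944 higher with TMM. In the same 6 members the groups did not overlap, against 48.2% of all tested genes. All 3 HUSH subunits, MORC4 and HELLS were lower: MPHOSPH8 fell by 15.2%, PPHLN1 fell by 17.7%, MORC4 fell by 18.3%, HELLS fell by 19.4% and TASOR fell by 20.1%. ATF7IP rose by 16.02%. MORC2, MORC3, RESF1 and SMCHD1 did not pass the test. The members' median log2 fold change was -0.12, against 0.00 over all tested genes, and their median size of change regardless of sign was 0.23 on the log2 scale, against 0.26. In bulk RNA, fewer cells making a transcript and less of it per cell cannot be told apart.

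The promoters of the 5 members that fell are shown because each of these genes was called lower. Whether they change together was not tested. They are RefSeq windows (GRCh38.p14) from 250 bases before to 50 bases after the transcription start, 5′ to 3′ on the gene's strand, with matches to the motifs named after them in capitals, on either strand. Where the table held several windows of a gene (3 for TASOR, 2 for PPHLN1), the first was used. MPHOSPH8 lies at chr13:19633409-19633708 (+), TASOR at chr3:56683216-56683515 (-), PPHLN1 at chr12:42325917-42326216 (+), MORC4 at chrX:107000163-107000462 (-) and HELLS at chr10:94545538-94545837 (+). For PPHLN1 and HELLS the RefSeq start used lies inside the gene as GENCODE draws it. PPHLN1 starts at 42326167 in RefSeq and at 42238447 in GENCODE, and HELLS at 94545788 and 94501434.
MPHOSPH8: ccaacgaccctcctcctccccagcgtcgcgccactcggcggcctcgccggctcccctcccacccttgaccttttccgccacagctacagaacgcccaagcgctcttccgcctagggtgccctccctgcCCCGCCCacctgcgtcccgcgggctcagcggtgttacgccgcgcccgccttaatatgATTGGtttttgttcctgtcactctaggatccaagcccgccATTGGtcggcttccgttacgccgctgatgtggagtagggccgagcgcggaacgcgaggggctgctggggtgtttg
TASOR: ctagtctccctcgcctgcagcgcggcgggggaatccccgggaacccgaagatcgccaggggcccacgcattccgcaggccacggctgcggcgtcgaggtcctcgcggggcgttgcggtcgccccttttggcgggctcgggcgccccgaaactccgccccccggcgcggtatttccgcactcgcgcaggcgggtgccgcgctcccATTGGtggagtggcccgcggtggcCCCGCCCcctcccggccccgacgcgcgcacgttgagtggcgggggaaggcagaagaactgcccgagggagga
PPHLN1: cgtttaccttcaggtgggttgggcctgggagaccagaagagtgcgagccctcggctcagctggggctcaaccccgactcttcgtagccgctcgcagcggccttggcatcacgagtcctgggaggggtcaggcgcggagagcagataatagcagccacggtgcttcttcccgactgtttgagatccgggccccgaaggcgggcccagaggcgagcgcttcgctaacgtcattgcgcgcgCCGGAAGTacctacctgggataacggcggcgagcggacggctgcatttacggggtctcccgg
MORC4: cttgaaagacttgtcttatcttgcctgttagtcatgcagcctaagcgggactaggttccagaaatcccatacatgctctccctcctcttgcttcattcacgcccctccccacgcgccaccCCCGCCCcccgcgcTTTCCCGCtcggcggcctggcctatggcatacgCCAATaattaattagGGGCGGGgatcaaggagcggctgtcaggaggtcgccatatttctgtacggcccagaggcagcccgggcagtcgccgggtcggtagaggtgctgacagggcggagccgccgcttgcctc
HELLS: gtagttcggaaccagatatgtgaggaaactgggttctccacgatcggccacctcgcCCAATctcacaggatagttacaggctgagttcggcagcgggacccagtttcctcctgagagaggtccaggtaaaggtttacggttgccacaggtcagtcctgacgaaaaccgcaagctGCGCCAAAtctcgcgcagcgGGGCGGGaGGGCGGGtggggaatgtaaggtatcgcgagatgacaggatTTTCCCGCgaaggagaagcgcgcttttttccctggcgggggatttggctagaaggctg

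The motifs searched on both strands were E2F sites (TTTCCCGC, TTTGGCGC or TTTCGCGC), the CCAAT box (CCAAT), an ETS site (CCGGAAGT), an SP1 site (GGGCGGG), a YY1 site (AAGATGGC) and the palindromic NRF1 site. No match overlapped another. HELLS held 2 E2F words, one with its first base at -8 from the start and one on the other strand at -76, and MORC4 held 1 at -116. An E2F word was in 2.79% of 27305 promoters of this length. PPHLN1 carried an ETS word at -12, as did MORC3 at -29, against 4.44% of all promoters. The NRF1 word was in MORC3 alone among the members (1.36% of promoters), and the YY1 word was in no member (3.03%). CCAAT and SP1 words were in 7 members each, against 35.7% and 32.9% of all promoters. The 10 windows held 22 to 44 CpG dinucleotides, where the median promoter holds 14. The shares given here are over all promoters and are not matched for CpG content. Whether the members differ from promoters of like CpG content was not tested. These matches describe letters in the windows and do not show binding.

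Among the HUSH subunits, TASOR had the largest change. It was at 60.8, 60.6 and 64.8 CPM in si-CHAF1A 1, 2 and 3, and at 83.6, 67.7 and 82.1 CPM in si-Ctrl 1, 2 and 3. Every knockdown library lay below every control, and the lowest control was si-Ctrl 2. The mean was 62.1 ± 2.36 CPM in si-CHAF1A and 77.8 ± 8.79 CPM in si-Ctrl (SD, n = 3 each; fitted log2 change -0.32 ± 0.08 SE, edgeR adjusted p = 0.00613). Without si-Ctrl 2 the log2 fold change was -0.42 (edgeR adjusted p = 2.90e-08). Leaving out any other single library gave an edgeR adjusted p from 0.0181 (si-CHAF1A 3) to 0.0411 (si-CHAF1A 2). Of all tested genes, 40.9% had a larger fold change than TASOR in either direction.

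The RNA-binding subunit PPHLN1 was at 74.4, 77.6 and 78.5 CPM in si-CHAF1A, and at 99.3, 81.7 and 99.5 CPM in si-Ctrl. The groups did not overlap, with si-Ctrl 2 again the nearest control. The means were 76.8 ± 2.17 CPM in si-CHAF1A and 93.5 ± 10.2 CPM in si-Ctrl (fitted log2 change -0.28 ± 0.08 SE, edgeR adjusted p = 0.0113), and the log2 fold change was -0.38 without si-Ctrl 2. The chromodomain subunit MPHOSPH8 was at 40.7, 37.0 and 40.3 CPM in si-CHAF1A and at 47.4, 46.6 and 45.3 CPM in si-Ctrl. Its controls were tightly grouped, and si-Ctrl 2 was not apart for this gene. The means were 39.3 ± 2.01 CPM in si-CHAF1A and 46.4 ± 1.06 CPM in si-Ctrl (fitted log2 change -0.24 ± 0.08 SE, edgeR adjusted p = 0.0217), and the log2 fold change was again -0.24 without si-Ctrl 2. Among the libraries left out in turn, the call was lost without si-CHAF1A 2, si-CHAF1A 3 or si-Ctrl 1 (edgeR adjusted p = 0.113, 0.0557 and 0.0608), and it was also lost with library totals (0.0731). The PPHLN1 call was lost without si-CHAF1A 1 or si-Ctrl 3 (edgeR adjusted p = 0.0584 and 0.0541), whereas TASOR passed whichever library was left out.

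Summed over the 3 subunits, HUSH transcripts reached 175.8, 175.3 and 183.5 CPM in si-CHAF1A and 230.3, 196.0 and 226.9 CPM in si-Ctrl. The balance between subunits was compared within each library, where scaling between libraries plays no part. There were 1.58 ± 0.0769 TASOR counts per MPHOSPH8 count in si-CHAF1A and 1.68 ± 0.195 in si-Ctrl (log2 difference -0.08, exact permutation p = 0.6, two-sided). PPHLN1 stood at 1.96 ± 0.135 counts per MPHOSPH8 count in si-CHAF1A and 2.01 ± 0.232 in si-Ctrl (log2 difference -0.04, exact permutation p = 0.8). Both ratios overlapped between the groups, and with 3 libraries against 3 the smallest p possible is 0.1. For TASOR to MPHOSPH8 the overlap came from si-Ctrl 2 alone, at 1.45. The ratio was 1.76 and 1.81 in si-Ctrl 1 and 3, above the 1.49, 1.64 and 1.61 of si-CHAF1A 1, 2 and 3. With each library left out in turn, the log2 difference ran from -0.18 (without si-Ctrl 2) to -0.02 (without si-Ctrl 3) for TASOR, and from -0.13 (without si-Ctrl 2) to 0.03 (without si-Ctrl 3) for PPHLN1.

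**Figure D1:**
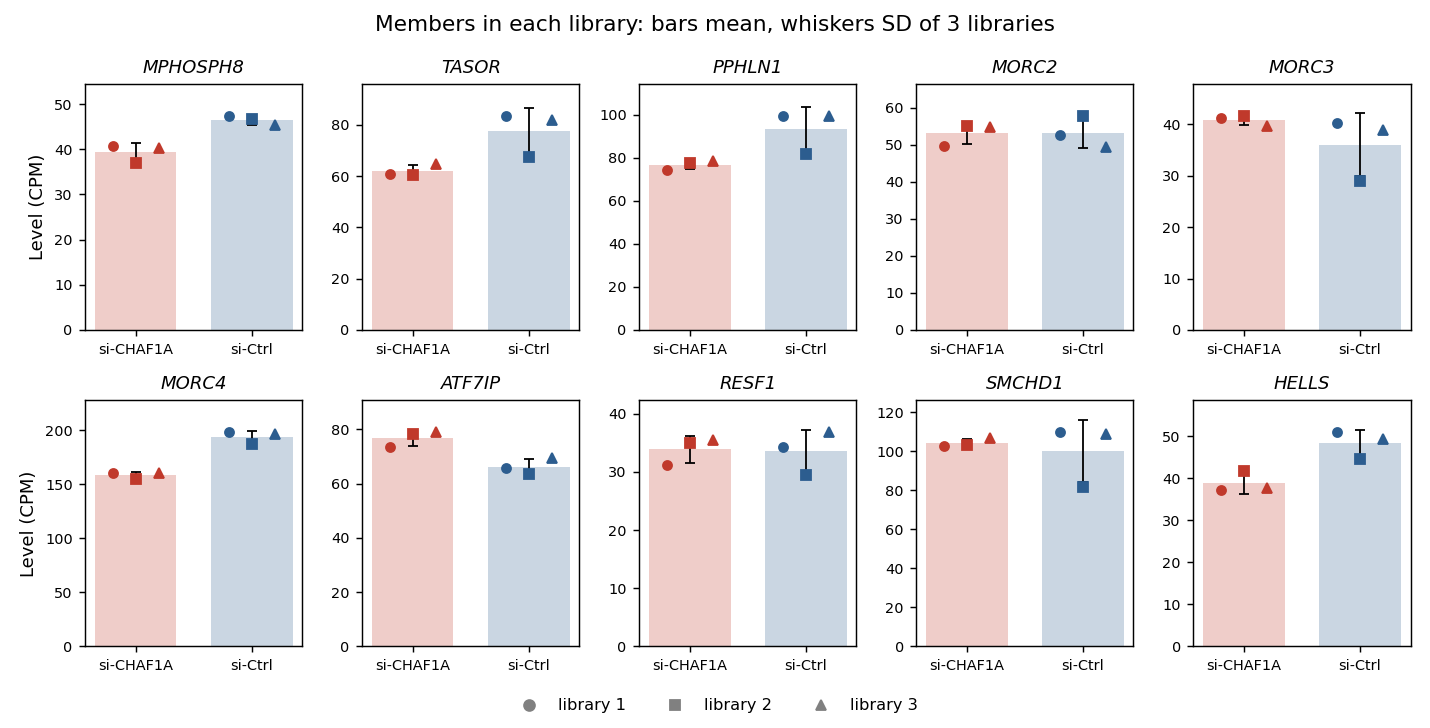
Level of each of the 10 members in CPM (y axes, each from 0) in the 3 si-CHAF1A libraries (red) and the 3 si-Ctrl libraries (blue); bars are means, whiskers SD and symbols single libraries. The groups do not overlap for MPHOSPH8, TASOR, PPHLN1, MORC4, ATF7IP and HELLS, and the si-Ctrl 2 square is the lowest control for 8 members.

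Of the MORC ATPases, MORC4 passed the test and MORC2 and MORC3 did not. MORC4, a MORC with a histone-reading CW zinc finger, was at 160.3, 154.5 and 160.2 CPM in si-CHAF1A and 198.2, 187.1 and 196.4 CPM in si-Ctrl. Every si-CHAF1A library lay below every si-Ctrl library. The means were 158.3 ± 3.29 CPM in si-CHAF1A and 193.9 ± 5.94 CPM in si-Ctrl (fitted log2 change -0.29 ± 0.06 SE, edgeR adjusted p = 0.00145), the smallest p among the members, and the log2 fold change was -0.32 without si-Ctrl 2. MORC4 passed in each of the 13 alternatives, with adjusted p up to 0.0166.

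MORC3, a component of PML nuclear bodies, was at 41.2, 41.7 and 39.8 CPM in si-CHAF1A and at 40.3, 28.95 and 39.0 CPM in si-Ctrl. The groups overlapped, with si-Ctrl 2 well below every other library. Its log2 fold change was 0.18 (SE 0.11, 95% interval -0.04 to 0.41, edgeR adjusted p = 0.194), and 0.04 without si-Ctrl 2. MORC2, the MORC that works with HUSH, was at 49.6, 55.02 and 54.7 CPM in si-CHAF1A and at 52.5, 57.8 and 49.5 CPM in si-Ctrl. The values interleaved, with a log2 fold change of 0.00 (95% interval -0.17 to 0.17, edgeR adjusted p = 0.973), and 0.05 without si-Ctrl 2. The germ-line gene MORC1 had at most 1 count in a library.

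MORC3 and MORC4 were also compared within each library. MORC3 had 0.257, 0.270 and 0.248 counts per MORC4 count in si-CHAF1A and 0.203, 0.155 and 0.199 in si-Ctrl, without overlap. The log2 difference was 0.49 (exact permutation p = 0.1, the smallest possible, and 0.2 adjusted over the 4 ratios), and 0.36 without si-Ctrl 2.

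ATF7IP, the nuclear partner of SETDB1, was the member that rose. It was at 73.5, 78.2 and 78.9 CPM in si-CHAF1A and at 65.9, 63.6 and 69.4 CPM in si-Ctrl. The lowest knockdown library lay above the highest control. Its means were 76.9 ± 2.96 CPM in si-CHAF1A and 66.3 ± 2.93 CPM in si-Ctrl (fitted log2 change 0.21 ± 0.07 SE, edgeR adjusted p = 0.0231), and the log2 fold change was 0.18 without si-Ctrl 2. Among the libraries left out in turn, the call was lost without si-CHAF1A 2, si-CHAF1A 3 or si-Ctrl 1 (edgeR adjusted p = 0.0923, 0.106 and 0.0626), and it was also lost with no filter on low counts (0.0593).

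RESF1, which is known from mouse embryonic stem cells to act with SETDB1 on endogenous retroviruses, was at 31.3, 34.97 and 35.6 CPM in si-CHAF1A and at 34.3, 29.5 and 36.8 CPM in si-Ctrl. Its log2 fold change was 0.02 (95% interval -0.18 to 0.22, edgeR adjusted p = 0.896), and -0.07 without si-Ctrl 2. The groups overlapped. SMCHD1 was at 102.5, 103.3 and 106.5 CPM in si-CHAF1A and at 109.6, 81.9 and 108.8 CPM in si-Ctrl. Its knockdown libraries sat between si-Ctrl 2 and the other controls, with a log2 fold change of 0.06 (95% interval -0.14 to 0.26, edgeR adjusted p = 0.666) and -0.08 without si-Ctrl 2. With all libraries, the intervals of MORC2, RESF1 and SMCHD1 ended above the -0.24 of MPHOSPH8, the smallest fall among the members that passed. Those of RESF1 and SMCHD1 included the 0.21 of ATF7IP, so a change of that size is not excluded for them.

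HELLS, the remodeller, was at 37.1, 41.8 and 37.7 CPM in si-CHAF1A and at 50.9, 44.6 and 49.3 CPM in si-Ctrl. The nearest libraries were si-CHAF1A 2 and si-Ctrl 2, and the groups did not overlap. Its means were 38.8 ± 2.53 CPM in si-CHAF1A and 48.3 ± 3.30 CPM in si-Ctrl (fitted log2 change -0.31 ± 0.08 SE, edgeR adjusted p = 0.00745, and -0.37 without si-Ctrl 2). Within libraries there were 0.373 ± 0.0271 HELLS counts per SMCHD1 count in si-CHAF1A and 0.487 ± 0.0498 in si-Ctrl (log2 difference -0.38, exact permutation p = 0.1, and 0.2 adjusted over the 4 ratios). Without si-Ctrl 2 that difference was -0.30.

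**Figure D2:**
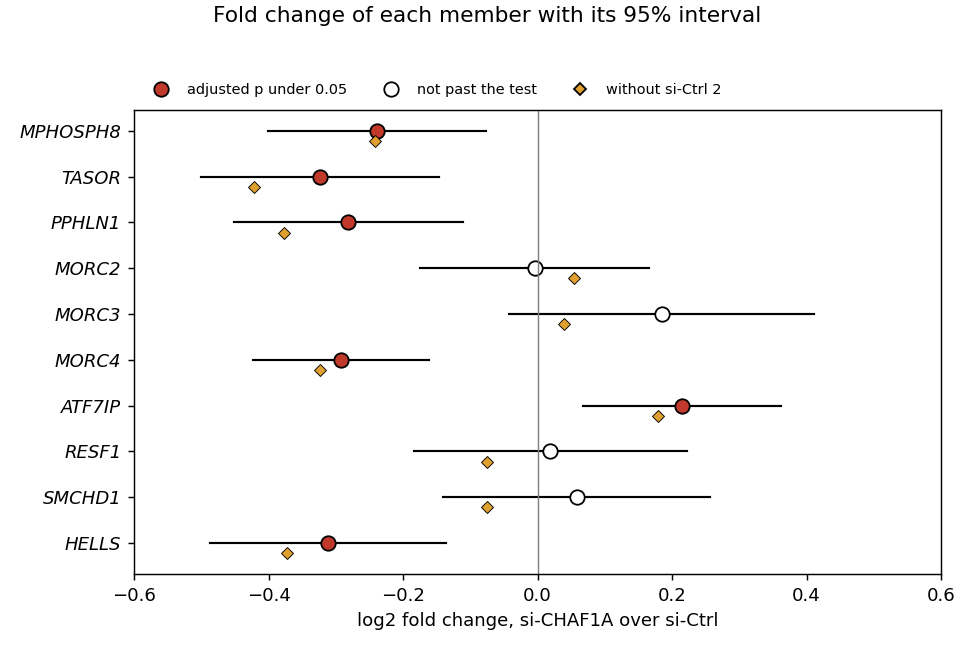
Log2 fold change of each member, si-CHAF1A over si-Ctrl (x axis), with its 95% interval from the edgeR fit; filled circles passed the test, open circles did not, and diamonds give the value without si-Ctrl 2. The 5 members that fell sit between -0.32 and -0.24, ATF7IP sits at 0.21, and MORC3 moves to 0.04 without si-Ctrl 2.

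Levels between genes were set side by side as CPM per kilobase of the GENCODE transcript with the longest coding part. MORC4 was highest, at 41.3 ± 0.858 in si-CHAF1A and 50.6 ± 1.55 in si-Ctrl, followed by PPHLN1 at 35.4 ± 1.00 and 43.1 ± 4.70. Both were above every other member in each library of each group. In si-CHAF1A, ATF7IP (15.9 ± 0.611) came next, above HELLS (12.4 ± 0.809) and TASOR (11.8 ± 0.451) in all libraries, whereas in si-Ctrl HELLS (15.4 ± 1.05), TASOR (14.8 ± 1.68) and ATF7IP (13.7 ± 0.605) overlapped. By their means, SMCHD1, MPHOSPH8, MORC2 and MORC3 followed in si-Ctrl, and SMCHD1, MORC2, MORC3 and MPHOSPH8 in si-CHAF1A. Neighbours in these orders mostly overlapped. SMCHD1 (11.8 ± 0.243 in si-CHAF1A) also overlapped TASOR and HELLS in that group. RESF1 was lowest, at 5.45 ± 0.374 in si-CHAF1A and 5.38 ± 0.601 in si-Ctrl.

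The place of some genes in that order depends on the length used. Per kilobase of all annotated exons MORC4 was still highest (26.2 ± 0.543 in si-CHAF1A and 32.0 ± 0.981 in si-Ctrl), but PPHLN1 was at 6.32 ± 0.179 and 7.69 ± 0.840 and HELLS was lowest, at 3.83 ± 0.250 and 4.76 ± 0.325. In si-Ctrl the HELLS libraries overlapped those of ATF7IP (5.03 ± 0.222), RESF1 (5.05 ± 0.563) and MORC3 (5.63 ± 0.969). In si-CHAF1A, TASOR (6.32 ± 0.240) lay above ATF7IP (5.83 ± 0.225) in all libraries, the reverse of their order per kilobase of transcript. PPHLN1 has 12.2 kb of annotated exons against 2.17 kb in the transcript used.

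**Figure D3:**
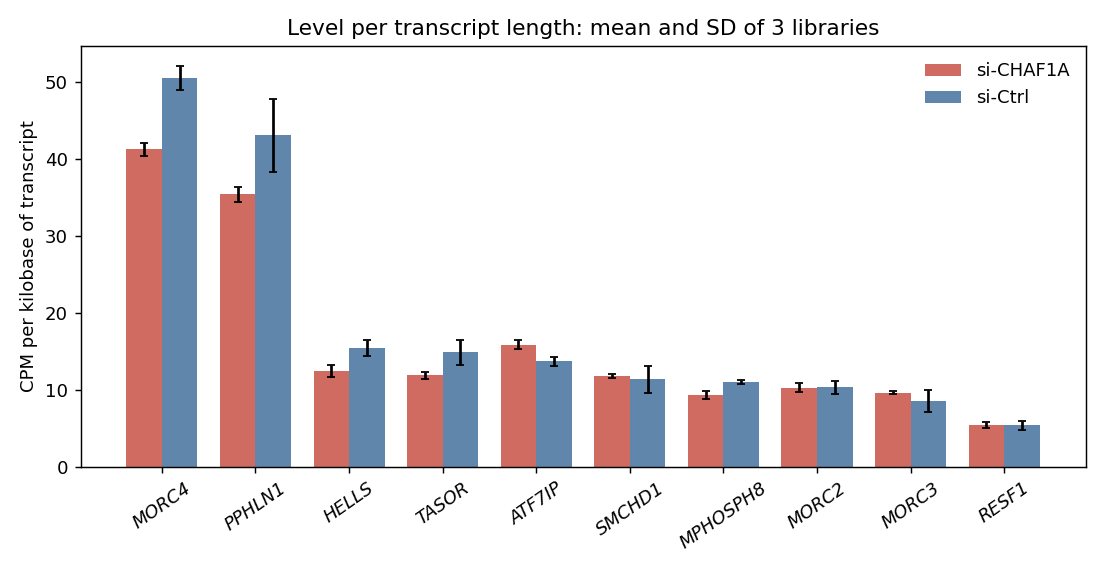
CPM per kilobase of transcript (y axis, from 0) for the 10 members in si-CHAF1A (red) and si-Ctrl (blue), as mean and SD of 3 libraries, in the order of the si-Ctrl level. MORC4 and PPHLN1 stand above the other members in both groups and RESF1 is lowest.

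Several members share ground with other genes, and the strand setting of the counting is not given in the sources used here. MORC3 (chromosome 21, 36320189 to 36386148, GENCODE 29) overlaps CHAF1B, the middle subunit of CAF-1, on the same strand, with 89 bases of exon in common. CHAF1B was at 24.7 ± 1.86 CPM in si-CHAF1A and 27.4 ± 0.452 CPM in si-Ctrl (log2 fold change -0.15, edgeR adjusted p = 0.215). The RefSeq start of PPHLN1 lies 49 bases from the GENCODE start of the splicing factor gene ZCRB1 on the opposite strand. ZCRB1 was at 27.2, 31.2 and 32.1 CPM in si-CHAF1A and at 33.8, 33.7 and 35.3 CPM in si-Ctrl, a difference that did not pass (log2 fold change -0.18, edgeR adjusted p = 0.112) but did without si-Ctrl 2 (-0.20, edgeR adjusted p = 0.0417). The gene YAF2, a Polycomb-associated factor, starts 98 bases from the upstream end of PPHLN1 in GENCODE, on the opposite strand. That end, at 42238447, is a different place from the RefSeq start beside ZCRB1, at 42326167. YAF2 rose to 21.3 ± 0.319 CPM in si-CHAF1A, against 16.6 ± 0.758 CPM in si-Ctrl (log2 fold change 0.36, edgeR adjusted p = 0.00602).

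The RefSeq start of MORC2 lies 471 bases from the GENCODE start of the non-coding RNA gene TUG1, which runs in the opposite direction. Between the GENCODE starts of the genes the distance is 947 bases. TUG1 was at 132.7 ± 6.75 CPM in si-CHAF1A and 112.3 ± 8.85 CPM in si-Ctrl without overlap, and was called higher (edgeR adjusted p = 0.0159). MORC4 contains the claudin gene CLDN2 on the opposite strand with no exon bases in common. CLDN2 rose to 372.3 ± 25.04 CPM in si-CHAF1A, against 289.7 ± 4.18 CPM in si-Ctrl (log2 fold change 0.36, edgeR adjusted p = 0.000357), while MORC4 fell. TASOR shares 287 exon bases with CCDC66 on the opposite strand, at 12.4 ± 0.183 CPM in si-CHAF1A and 11.6 ± 0.483 CPM in si-Ctrl, which did not pass although the groups did not overlap. The antisense gene MORC2-AS1 had at most 6 counts in a library. PPHLN1 shares 438 exon bases with PRICKLE1 on the opposite strand, which did not pass (log2 fold change 0.05, edgeR adjusted p = 0.678). TBC1D12 overlaps HELLS and TBC1D8B overlaps MORC4, with no exon bases in common. Neither passed (log2 fold change 0.17 and 0.01, edgeR adjusted p = 0.208 and 0.942), although the groups did not overlap for TBC1D12.

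Genes that work beside the members were followed in 6 lists, read against the same background of 18.5% higher and 19.3% lower. Of the HUSH partners 6 of 8 were tested and none (0) passed, 0 higher and 0 lower, with a median log2 fold change of -0.04. The methyltransferase SETDB1 was at 36.1 ± 0.658 CPM in si-CHAF1A and 40.1 ± 1.47 CPM in si-Ctrl (log2 fold change -0.15, edgeR adjusted p = 0.132), without overlap. The related SETDB2 was at -0.25 (edgeR adjusted p = 0.125, and 0.0422 without si-Ctrl 2). The co-repressor TRIM28 was at -0.05, the HUSH subunit paralogue TASOR2 at 0.11, the SMCHD1 partner LRIF1 at 0.01 and the DNA-binding ZNF638 at -0.04. The ATF7IP paralogue ATF7IP2 had at most 3 counts in a library.

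RNA decay factors linked to HUSH were lower in 4 and higher in 0 of 6. The exosome nuclease EXOSC10 fell to 36.3 ± 1.08 CPM in si-CHAF1A, against 49.99 ± 3.20 CPM in si-Ctrl (log2 fold change -0.46, edgeR adjusted p = 0.000249). ZCCHC8 and the helicase MTREX, subunits of the nuclear exosome targeting complex, fell by 0.32 and 0.24 on the log2 scale, and the deadenylase scaffold CNOT1 fell by 0.17. The third subunit, RBM7, was at 0.07 and the zinc finger protein ZFC3H1 at 0.04, and neither passed.

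Of the H3K9 methylation writers and readers, 2 of 8 tested genes were higher and 3 lower. The heterochromatin protein CBX3 had a log2 fold change of -0.82, CBX5 of -0.42 and the methyltransferase SUV39H1 of -0.62. SUV39H2 was at 0.29 and EHMT1 at 0.20, both higher, though SUV39H2 did not pass without si-Ctrl 2 (edgeR adjusted p = 0.123). CBX1 was at -0.10 and did not pass, nor did SETDB1 and SETDB2, which are also in this list. EHMT2 had at most 2 counts in a library and was not tested, and as it lies in the MHC region, which the human assembly also carries as alternative haplotypes, this is not read as low expression. Among the DNA methylation partners of HELLS, 1 was higher and 2 lower of 7. DNMT1, the maintenance methyltransferase, was at -0.51 and its recruiter UHRF1 at -0.25. The HELLS activator CDCA7 was at 0.13 (edgeR adjusted p = 0.280), its paralogue CDCA7L rose by 0.31, and ZBTB24, DNMT3A and DNMT3B were at -0.09, 0.14 and -0.19 without passing.

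PML body and SUMO genes, the surroundings of MORC3, were lower in 0 and higher in 0 of 5 tested. On the log2 fold change scale PML was at 0.15, SP100 at 0.05, ATRX at 0.03, SUMO2 at 0.08 and SUMO3 at -0.15, none past the test. Without si-Ctrl 2, PML was higher (0.27, edgeR adjusted p = 5.06e-05). DAXX, in the same region as EHMT2, had at most 3 counts in a library and was not tested, and this is likewise not read as low expression.

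DNA replication genes, given because HELLS is made mainly in dividing cells, were lower in 11 and higher in 0 of 14, with a median log2 fold change of -0.36. The helicase subunits MCM2 to MCM7 lay between -0.56 (MCM6) and -0.28 (MCM3). CDC6, CDC45, GINS1, GINS2 and RRM2 were at -0.43, -0.45, -0.47, -0.26 and -0.41. PCNA, E2F1 and CCNE2 did not pass (0.14, -0.07 and -0.24). The summed level of the list was 1197 to 1250 CPM in si-CHAF1A and 1484 to 1575 CPM in si-Ctrl. HELLS was at -0.31. The list ran from -0.56 (MCM6) to 0.14 (PCNA). That range is not particular to HELLS, as it held every member except MORC3 (0.18) and ATF7IP (0.21). The part of the replication genes in the HELLS result was not tested.

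**Figure D4:**
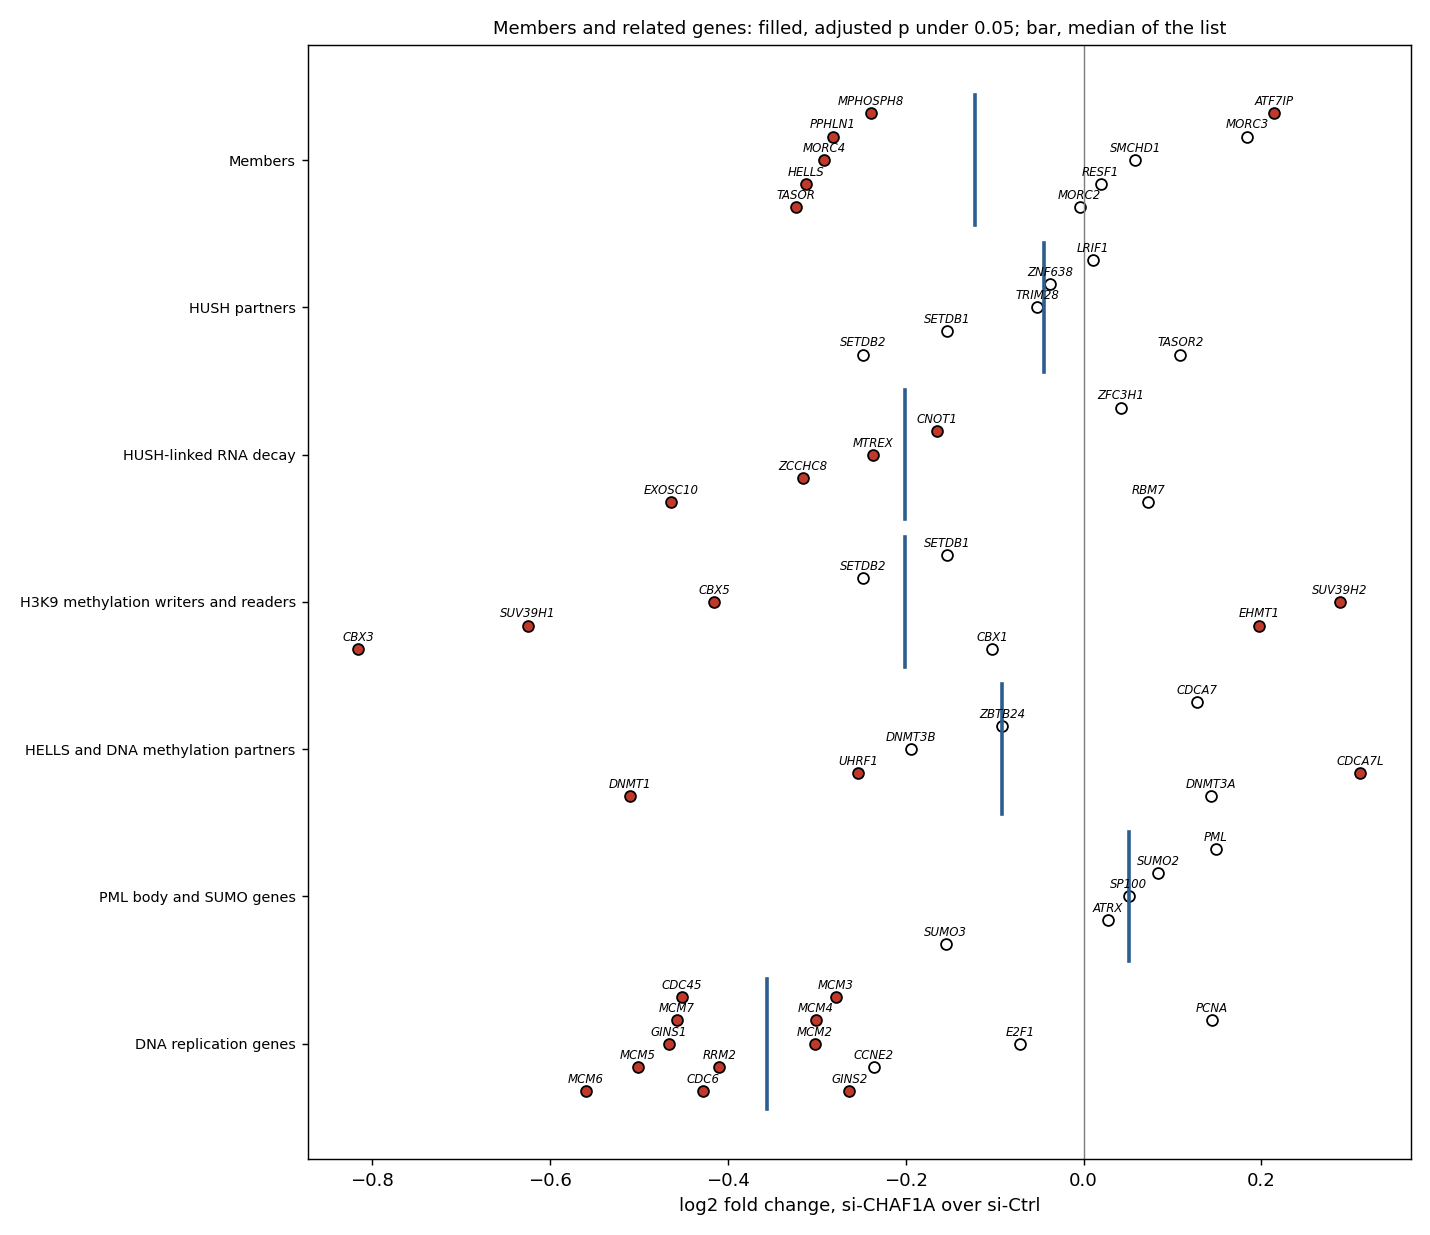
Log2 fold change, si-CHAF1A over si-Ctrl (x axis), of the 10 members and of 6 lists of related genes (rows); filled points passed the edgeR test, open points did not, and blue bars are list medians. Members run from -0.32 (TASOR) to 0.21 (ATF7IP), a narrower range than the H3K9 methylation genes, which reach -0.82 (CBX3), and the replication genes have the lowest median.

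Counts behind the members ran from 526 (RESF1) to 3703 (MORC4) in a library. Counting error alone gives coefficients of variation of 1.71% to 4.13%. In si-CHAF1A the observed coefficients between libraries ran from 2.06% (SMCHD1) to 6.86% (RESF1), the second against 4.12% from counting. In si-Ctrl they ran from 2.28% (MPHOSPH8) to 17.2% (MORC3, against 3.99% from counting), with 15.8% for SMCHD1 and 11.3% for TASOR.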

How the data were processed

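RNA-seq reads of 150 bp were obtained from 6 libraries of RBE cells. The values are whole-number read counts per gene, deposited by the authors as 1 table without normalisation. Per the submitters' processing notes, fastp 0.20.1, HISAT2 2.1.0, SAMtools 1.9, featureCounts 2.0.1, StringTie 2.1.4 and the build hg38 were used. The sources used here do not give the strand setting, the annotation release or the treatment of multi-mapping reads. Columns named NC were read as negative control, which the labels do not state; no column of other samples was present (0).

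Genes were filtered with filterByExpr (minimum count 10, minimum total 15) and fitted in R 4.3.3 with TMM scaling by edgeR (version 4.0.16), using its quasi-likelihood test in robust form and no covariate, with Benjamini-Hochberg adjustment over 15911 genes. CPM were computed here from the deposited counts with TMM factors. SE is the log2 fold change divided by the square root of F, and intervals use the fit's degrees of freedom. Ratios of counts were compared by exact permutation over 20 splits. DESeq2 1.42.0 and limma 3.58.1 served as alternatives. Positions and lengths come from GENCODE 29 (GRCh38, the same assembly as hg38) and promoters from RefSeq; 62665 identifiers had a symbol and all 10 members had a promoter. Replicates are called biological in the design text with nothing more said, so p-values rest on the variation between these 6 libraries only. The edgeR fit estimates that variation partly from all tested genes (15.5 degrees of freedom for each member). No 2 libraries of a group were duplicates (chi-square per degree of freedom 2.30 to 13.7). The named genes are all members, the targeted gene, the genes of the lists, the tested genes overlapping a member and MORC2-AS1. Other overlapping genes had too few counts for testing and are not named. Genes starting within 1000 bases of a member's start on the opposite strand were added after the values were seen. Some genes of the lists are not reported here, and list counts and sums leave them out. Members, lists and motifs were chosen with earlier results of these data known.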

Additional observations from a re-analysis of the deposited data

How the results depend on the processing

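The 10 members were refitted under 13 alternatives: DESeq2 size factors, library totals, no filter, a filter of 1 CPM in 3 libraries, DESeq2, limma-voom, the replicate block and each library left out. Of these values, 118 kept their side of the threshold and 12 lost it; those were of MPHOSPH8, PPHLN1 and ATF7IP. The count of members lower was 4 or 5. The count of members higher was 0 with no filter, 0 with the replicate block and 0 to 1 with a library left out. Library totals moved the median log2 fold change of all genes by 0.05, gave 3447 genes higher and 2455 lower in all, and ended the MPHOSPH8 call (edgeR adjusted p = 0.0731), and the replicate block ended those of MPHOSPH8 (0.0517) and ATF7IP (0.0565). Same-numbered libraries did not deviate together (correlations -0.0859, -0.0643 and -0.00313). With 3 libraries in a group, these correlations cannot show whether same-numbered libraries were prepared together, so pairing is not settled. The PPHLN1 to MPHOSPH8 ratio turned to 0.011 without si-CHAF1A 1 and 0.028 without si-Ctrl 3, within a leave-one-out range of -0.13 to 0.03. The same counts for the lists were run without si-Ctrl 2, a choice made after seeing the data, and moved by 1 gene at most in any direction. The cause of these shifts was not tested. MORC3, the member with the widest interval (-0.04 to 0.41), varied by 17.2% between si-Ctrl libraries, against 3.99% from counting alone.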
